A study of Homo sapiens with 8 samples.

Results

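The 8 h comparison consists of 2 arrays, out of 8 in the series, on which RNA from L363 cells given the IKKβ inhibitor MLN120B for 8 h was read against RNA from L363 cells given the solvent DMSO. They were chosen by the treatment time in their labels. L363 is an established human plasma cell line, labelled multiple myeloma. Treated cells received 12.5 µM MLN120B at 37 °C, and their cDNA carried the dye Cy5, while cDNA of the DMSO cells carried Cy3. The other arrays followed the same scheme at 12 h (3 arrays) and 24 h (3 arrays), with the same dose, temperature, cell line and solvent. No array had its dyes exchanged, and the labels do not say for how long the DMSO cells were kept or whether arrays shared one DMSO RNA. Whether the samples are separate cultures is not said, and p-values then cover only the spread between these arrays, which may be technical. All results hold for 1 cell line at 1 dose.

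IKKβ is the kinase that marks the inhibitory IκB proteins for destruction, which lets the classical NF-κB dimers enter the nucleus. NF-κB then switches on genes of inflammation, cell survival and antigen presentation, and also the genes of its own brakes, among them the IκB protein IκBα and the ubiquitin editor A20. Because these brakes are made anew only while NF-κB is active, their messages are common readouts of an IKKβ inhibitor. Many myelomas keep this pathway active, and plasma cells otherwise devote much of their capacity to folding and secreting antibody.

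Promoter sequence of 3 list genes is given beside the values. The 250 bases before the start of NFKBIA (IκBα), TNFAIP3 (A20) and WNT10A (a secreted Wnt ligand on the study's NF-κB list) are shown because these genes lay below 0 on both 8 h arrays and their window holds a match to the NF-κB consensus. They were picked after matches and values were seen, and NFKB2, which met both conditions too, is not printed. They come from the RefSeq promoter table of build GRCh38.p14, and capitals mark each match to the consensus decamer, searched on both strands.
NFKBIA, chr14:35404750-35404999, minus strand: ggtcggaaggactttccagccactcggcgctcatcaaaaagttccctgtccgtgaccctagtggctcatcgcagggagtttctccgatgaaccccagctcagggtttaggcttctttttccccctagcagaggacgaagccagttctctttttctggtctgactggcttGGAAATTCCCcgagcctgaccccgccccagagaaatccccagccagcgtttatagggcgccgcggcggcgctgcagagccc
TNFAIP3, chr6:137867009-137867258, plus strand: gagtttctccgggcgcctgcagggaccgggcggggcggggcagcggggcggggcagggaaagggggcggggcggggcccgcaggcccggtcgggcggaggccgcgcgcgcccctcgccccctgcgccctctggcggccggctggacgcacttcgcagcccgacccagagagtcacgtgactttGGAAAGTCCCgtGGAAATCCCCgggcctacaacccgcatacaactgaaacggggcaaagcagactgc
WNT10A, chr2:218880602-218880851, plus strand: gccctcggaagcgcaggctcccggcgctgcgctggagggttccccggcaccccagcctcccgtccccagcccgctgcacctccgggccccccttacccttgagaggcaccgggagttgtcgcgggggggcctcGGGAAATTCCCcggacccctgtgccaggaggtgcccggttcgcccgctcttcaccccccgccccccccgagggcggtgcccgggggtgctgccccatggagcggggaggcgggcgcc
In NFKBIA the match lies 81 to 72 bases before the start. In TNFAIP3 one match lies 67 to 58 bases and the other 55 to 46 bases before it. In WNT10A the capitals are 2 overlapping matches, 1 on each strand, 117 to 107 bases before it. Such a match occurs in 9.96% of all 35116 promoter windows and in 17.1% of the 2730 tested genes that have a window. Of the study's NF-κB genes with a window 5 of 8 hold one, among them CD74, which did not lie below 0 on both arrays. IL2RG, PLEK and MALT1 have a window without one. Of the inhibitor genes with a window 3 of 6 hold one (NFKBIA, TNFAIP3 and CYLD), and of the textbook NF-κB targets 17 of 32. A match is a string of letters and was not tested as a binding site.

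Values are the authors' deposited log2 ratios, likely MLN120B over DMSO, centred on the median of each array, so that a value below 0 means less RNA in the treated cells. The direction follows from the labels' dyes and the usual convention of red over green and is not stated, and base 2 was read from the size of the values. If the sign were turned, every direction below would reverse. Features of a gene were averaged, which left 5411 rows for testing, 3311 of them named genes. As ratios hold no level, the labelled cell type could not be checked against its markers beyond noting that all 10 plasma cell markers had a value. In a bulk sample fewer cells of a type and less RNA per cell cannot be told apart.

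The arrays differed strongly in spread, and each is therefore given on its own. Sample 1 had values for 12519 features (82.1%), with an SD of 0.21 and a range from -2.75 to 3.05. Sample 2 had values for 10456 features (68.6%), with an SD of 1.42 and a range from -10.66 to 12.54. A difference of at least 1 on the log2 scale was reached by 19 features (0.152%) on sample 1 and by 2333 (22.3%) on sample 2. The robust SD over tested rows was 0.14 and 0.67. A given value is therefore far more extreme on sample 1 than on sample 2.

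Over the tested rows the values of both arrays correlated at -0.11 (Pearson) and -0.12 (Spearman), a description across 5411 rows that share the labels, the dyes and the array design. Of these rows 2923 (54.0%) had opposite signs, while 1183 (21.9%) lay below 0 on both arrays and 1288 (23.8%) above. Below 0 were 46.7% of the rows on sample 1 and 51.2% on sample 2. Different features of the same gene differed almost as much as features of different genes. On sample 1 the SD among features of a gene was 0.19, against 0.20 over all features of the 2257 genes with several features. On sample 2 the corresponding values were 1.23 and 1.29, over 1834 genes.

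The labels number the arrays in a database, and these numbers fall into 3 separate stretches, here called database runs. Sample 1 at 8 h belongs to the run of sample 2 at 12 h and 24 h, and sample 2 at 8 h to the run of sample 1 at 12 h and 24 h. The SD over features was 0.21 to 0.28 on the arrays of the former run and 1.00 to 1.42 on those of the latter. Over tested rows 8 h sample 1 correlated at 0.57 and 0.34 (Pearson) with the 12 h and 24 h arrays of its run. For 8 h sample 2 these values were 0.20 and 0.12. With arrays of other runs the 8 h arrays correlated at -0.21 to 0.07. The third run holds sample 3 at 12 h and 24 h and no 8 h array, yet it enters the tests of later times against 8 h. With 1 array of each of the other runs at 8 h, the time and the run can be separated only by comparing arrays within a run.

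**Figure D1:**
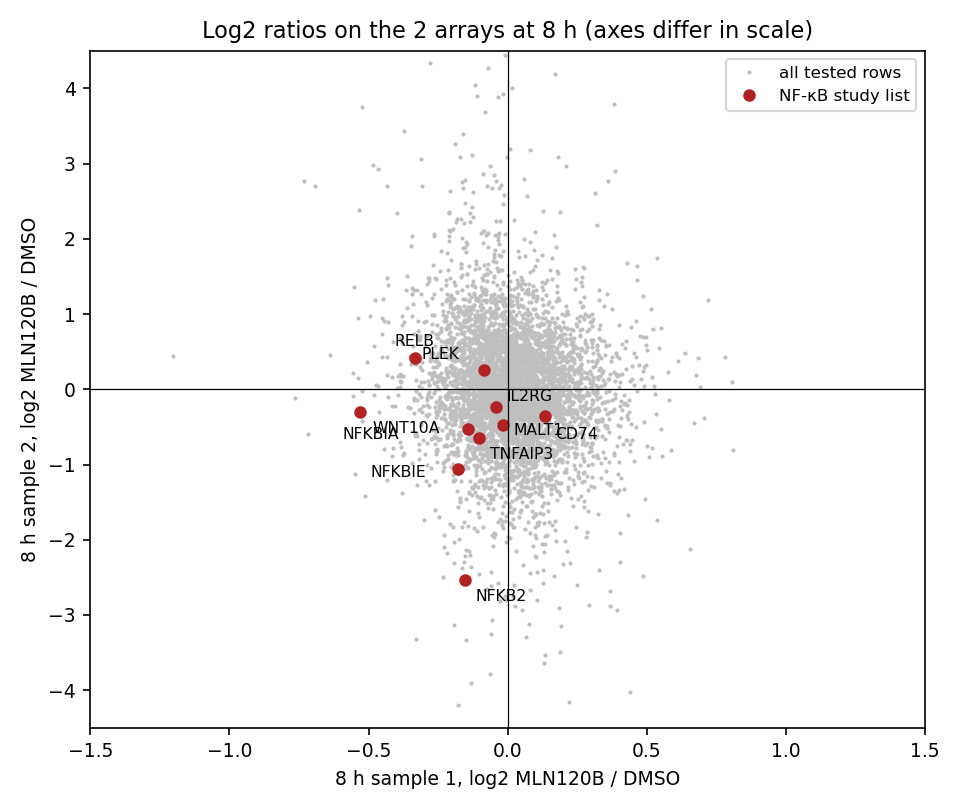
Centred log2 ratio (MLN120B over DMSO) of every tested row on 8 h sample 1 (x axis) and 8 h sample 2 (y axis), with the 10 tested genes of the study's NF-κB list in red. The axes differ in scale because the robust SD was 0.14 on sample 1 and 0.67 on sample 2; 37 rows lie outside the axes, and 7 of the 10 red points lie below 0 on both arrays.

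No single gene passed the test at 8 h. The mean of the 2 arrays was tested against 0 with limma, in a fit to all 8 arrays, and 0 of 5411 rows (0%) had an adjusted p under 0.05, the smallest being 0.999. At an unadjusted p under 0.05 stood 130 rows (2.4%). Without sample 1 the fit called 125 rows, 80 of them above 0, and without sample 2 it called 0. Those 125 rows had a median size of 3.12 on sample 2 and of 0.13 on sample 1, where 40 had the same sign and 85 the opposite one. Everything that follows is accordingly a description of values, and where a test is given it did not pass.

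Of the 7 tested genes of NF-κB's own brakes, 4 (57.1%) lay below 0 on both arrays, beside 21.9% of all rows. Above 0 on both were 2 (28.6%), beside 23.8%. NFKBIA, which encodes IκBα, was at -0.53 on sample 1 and -0.30 on sample 2. On sample 1 this was among the lowest rows of the array, at percentile 0.259, with all 4 measured features below 0 (-0.70 to -0.41). On sample 2 it was an ordinary value, at percentile 32.1, with 3 of 4 features below 0. The mean was -0.42 ± 0.27 (SE, n = 2, limma adjusted p = 1.0). At 12 h the 3 arrays stood at -1.33, -0.82 and -1.60, and at 24 h at -0.99, -0.93 and -1.42, so that both 8 h values were nearer to 0 than all later ones. No overlap with the 8 h values, in either direction, held for 15.1% of all rows at 12 h and for 20.2% at 24 h. The later mean differed from 8 h by -0.76 ± 0.31 (SE, limma adjusted p = 0.99).

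TNFAIP3, which encodes the ubiquitin editor A20, was at -0.10 on sample 1 and -0.65 on sample 2. Of its 6 features 4 were below 0 on sample 1 and 5 on sample 2, where the feature values ran from -1.59 to 0.22. Here the lower value came from sample 2, though neither array placed the gene beyond percentile 17.7. The later arrays ran from -1.64 to -0.37, and sample 2 at 8 h lay within that range. The difference of the later mean from 8 h was -0.70 ± 0.42 (SE, limma adjusted p = 0.99).

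NFKBIE, the gene of IκBε, was at -0.18 and -1.05, with both of its features below 0 on both arrays. BCL3, an IκB-like nuclear partner of p50 and p52, was at -0.30 and -0.86. With NFKBIA and TNFAIP3 these were the members of the inhibitor list that lay below 0 on both arrays, 4 of 7 tested. Of these 4 only BCL3 is not on the study's NF-κB list, which was selected partly with these very arrays. The other 3 tested inhibitor genes were deubiquitinase genes or an A20 partner with values near 0 on sample 1. CYLD, which removes ubiquitin chains from the IKK complex's adaptors, was at 0.053 and -0.18. OTULIN, specific for linear ubiquitin chains, was at 0.017 and 0.81. TAX1BP1, an adaptor of A20, was at 0.017 and 0.46.

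The genes of the NF-κB subunits pointed different ways. NFKB2, whose precursor p100 yields p52, was at -0.15 on sample 1 and -2.54 on sample 2. The latter mean rests on 1 feature at -10.11, since the other 4 features ran from -1.11 to -0.19 and the median feature was -0.98. On sample 1 features of NFKB2 disagreed, with 3 of 6 below 0 and a range from -0.55 to 0.23. RELB, the partner of p52 in the alternative pathway, was at -0.33 on sample 1, at percentile 1.74, and at 0.41 on sample 2. Over the features that both arrays measured, RELB was at -0.33 and 0. RELA, the p65 subunit of the classical dimer, was at -0.20 and 0.99, and its features on sample 2 lay at -0.68 and 2.67. NFKB1, the p105 precursor of p50, was at 0.061 and -0.32. REL, encoding c-Rel, was the single subunit gene above 0 on both arrays, at 0.24 and 0.20. Of the 5 subunit genes 1 was below 0 on both arrays and 1 above.

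**Figure D2:**
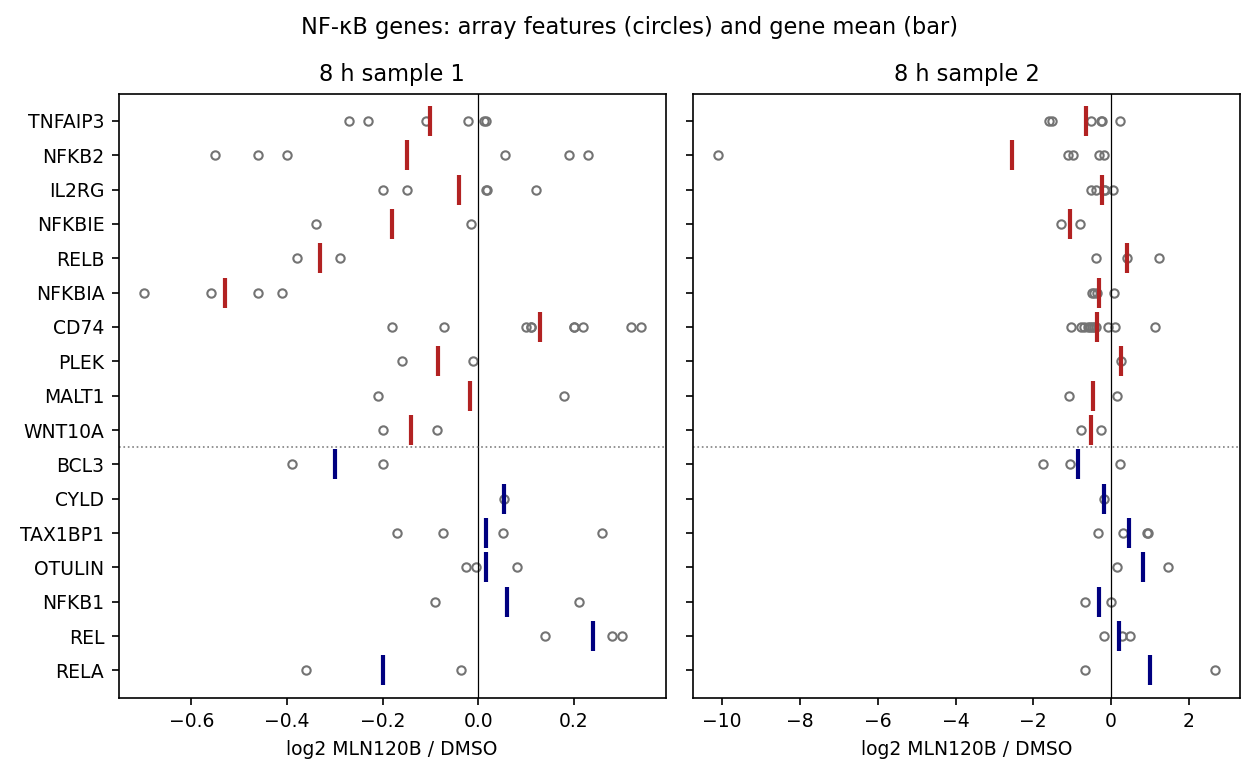
Log2 ratio (MLN120B over DMSO) of each array feature (circles) and the gene mean (bars) for the NF-κB genes at 8 h, sample 1 on the left and sample 2 on the right, on different scales. Genes of the study's list are above the dotted line and other inhibitors and subunits below it. All 4 NFKBIA features lie left of 0 on sample 1, and the NFKB2 mean on sample 2 is drawn out by a feature at -10.11.

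The study's NF-κB list holds 11 genes known from the paper on these samples, which selected them partly with these very arrays, so its direction is not independent evidence. Of the 10 tested members, 9 were below 0 on sample 1 and 8 on sample 2. Below 0 on both arrays were 7 (70.0%), beside 21.9% of all rows, and 0 were above on both. The list's median was -0.12 on sample 1 and -0.41 on sample 2, beside 0.012 and -0.024 over all rows. None of the members passed in limma. When the median over a gene's features replaced the mean, 6 remained below 0 on both arrays, because IL2RG turned to 0.016 on sample 1. BIRC3 had no annotated feature, nor had IKBKB, which encodes IKKβ itself, though 5073 features of the array had no gene listed.

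The other members of that list lay close to 0 on sample 1. WNT10A was at -0.14 and -0.52, with both features below 0 on both arrays. MALT1, the paracaspase that links antigen receptors to IKK, was at -0.017 and -0.47, and 1 of its 2 features lay above 0 on each array. IL2RG, the common cytokine receptor chain, was at -0.040 and -0.23. PLEK, the gene of pleckstrin, was at -0.084 and 0.26. CD74, the invariant chain of MHC class II, was at 0.13 on sample 1, where 2 of 10 features were below 0, and at -0.35 on sample 2, where 9 of 11 were. For CD74, PLEK and RELB, and for CYLD and RELA among the inhibitors and subunits, the sign of the mean over the arrays depended on how the arrays were scaled.

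Within a database run the study's list had its median nearer to 0 at 8 h than later. The list was selected partly with these very arrays, so this is not independent evidence. In the run of 8 h sample 1 its median was -0.12 at 8 h, -0.35 at 12 h and -0.34 at 24 h. There 9 of 10 genes lay below their own 8 h value at 12 h, and 9 of 10 did at 24 h, beside 52.6% and 56.5% of all rows. In the run of 8 h sample 2 the median was -0.41 at 8 h, -1.43 at 12 h and -0.98 at 24 h, with 6 of 10 and 8 of 10 genes lower than at 8 h, beside 52.7% and 52.6% of all rows. The count at 12 h was thus near the share of all rows. NFKBIA, for example, went from -0.53 through -0.82 to -0.93 in the former run and from -0.30 through -1.33 to -0.99 in the latter. The NFKB2 mean lay between -2.54 and -2.35 on all 3 arrays of the latter run, but at 8 h it includes a feature at -10.11. That feature was at -3.74 at 12 h and had no value at 24 h. NFKB2 features measured on all 3 arrays went from -1.11 through -2.58 to -3.08 and from -0.19 through -2.56 to -1.62. By its mean NFKB2 is not among the lower genes counted for that run. The arrays of a run may share their DMSO RNA, which would tie these values to one another. In both runs the 8 h array had the smallest robust SD over tested rows. It was 0.14 at 8 h, 0.19 at 12 h and 0.21 at 24 h in the former, and 0.67, 0.91 and 0.77 in the latter. A value nearer to 0 at 8 h need therefore not be smaller in units of its own array. The shares of all rows also include rows above 0 at 8 h.

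**Figure D3:**
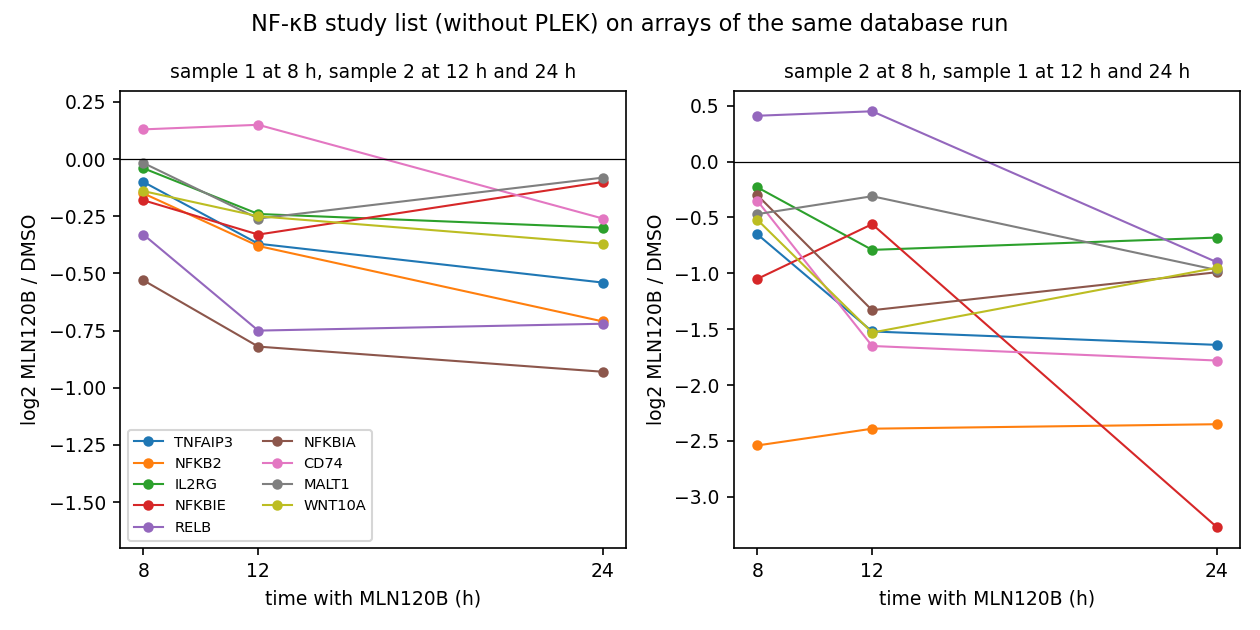
Log2 ratio (MLN120B over DMSO) against time with MLN120B (8, 12 and 24 h) for the genes of the study's NF-κB list, on the 3 arrays of the run of 8 h sample 1 (left) and of 8 h sample 2 (right), on different scales, with 1 array per point. PLEK, at -8.93 on sample 1 at 12 h, is not drawn. NFKBIA and TNFAIP3 lie lower at 12 h and 24 h than at 8 h in both panels.

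Gene by gene the difference between 8 h and the later times did not pass either. For the mean of 12 h and 24 h minus 8 h limma called 0 of 5411 rows (0%), with 82 (1.52%) at an unadjusted p under 0.05. For 12 h minus 8 h it called 0 (0%), with 64 (1.18%), and for 24 h minus 8 h 0 (0%), with 44 (0.813%). Without sample 1 at 8 h these counts became 92, 71 and 70. Without sample 3 at 12 h the second became 1.

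Named genes with the smallest p for 12 h minus 8 h were LYSMD3, GPBP1 and SMC6. LYSMD3 was at 0.21 and 0.66 at 8 h and at -1.61, -0.10 and -1.25 at 12 h, a difference of -1.42 ± 0.47 (SE, limma adjusted p = 0.99). SMC6, part of a chromosome-maintenance complex, was at 0.068 and 1.00 at 8 h and at -1.67, -0.17 and -0.91 at 12 h. GPBP1 was at -0.10 and 1.61 at 8 h and at -1.05, -0.32 and -1.61 at 12 h, though no GPBP1 feature had a value on all of these arrays. For each of the 3 genes the 8 h and 12 h values did not overlap, which held for 818 of 5411 rows (15.1%) in either direction. The genes were chosen by this difference, so nothing is read from it. For 24 h minus 8 h, where 1095 rows (20.2%) did not overlap, the genes of smallest p were MIR155HG, ITGAL and CSTF3. MIR155HG, the host transcript of miR-155 and a known NF-κB target, was at -0.18 and 0.15 at 8 h, at 0.19, -0.29 and -0.50 at 12 h, and at -1.24, -0.76 and -1.27 at 24 h. Its 24 h values lay below all 5 earlier ones, and 24 h differed from 8 h by -1.08 ± 0.35 (SE, limma adjusted p = 0.99). These MIR155HG values are means over 4 features, of which not all were measured on every array. The features with a value on every array were at -0.35 and -0.55 on 8 h sample 1 and at 0.59 and 0.38 on sample 2. They ran from -1.14 to -0.023 at 12 h and from -3.31 to -0.76 at 24 h. ITGAL, the integrin chain of LFA-1, was at -0.090 and -1.83 at 8 h and at 0.64, 0.26 and 0.41 at 24 h. These are means over differing features. The only ITGAL feature with a value on every array was at 0.084 and -0.68 at 8 h. At 24 h it was at 0.64, 0.029 and 0.41, so its values overlapped. CSTF3, a subunit of the polyadenylation machinery, was at 0.33 and 0.80 at 8 h and at -1.23, -0.26 and -0.091 at 24 h. Its value on sample 1 at 24 h came from another feature than those on samples 2 and 3.

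Upstream of NF-κB, the kinases, adaptors and receptors showed no common direction at 8 h. Of 17 tested members 4 (23.5%) were below 0 on both arrays and 6 (35.3%) above, with medians of 0.042 and 0.13. TNFRSF17, the plasma cell receptor BCMA, was highest of these in array units, at 0.24 and 1.34, and both of its features were above 0 on both arrays. At the later times it was at 0.59, 0.38 and 0.61 (12 h) and at -0.36, 0.48 and 0.21 (24 h). CHUK, which encodes the sister kinase IKKα, was at 0.21 and 0.26. MAP3K14, the kinase NIK of the alternative pathway, was at 0.054 and 0.27. MYD88, the adaptor of Toll-like receptors, was lowest, at -0.29 and -0.71, with all measured features below 0.

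Textbook targets of NF-κB outside the brakes did not share the direction of the study's list. Of 41 tested members 25 were below 0 on sample 1 and 17 on sample 2. On both arrays 8 (19.5%) were below and 7 (17.1%) above, close to the share among all rows, and the medians were -0.048 and 0.12. Sample 1 placed ICAM1, an adhesion receptor of leukocytes, at -0.38, and sample 2 at 0.61. IL6, the myeloma growth factor, was likewise at -0.34 and 1.32. STAT5A was at -0.39 and 0.33. These genes were among the lowest of the list on sample 1 and above 0 on sample 2. Below 0 on both arrays were CD86, a costimulatory ligand, at -0.20 and -1.14, JUNB, a subunit of AP-1, at -0.13 and -0.45, and LTB, encoding lymphotoxin β, at -0.15 and -0.33. CFLAR, the caspase-8 inhibitor FLIP, was at 0.10 and -2.23.

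MHC class II genes had no common direction at 8 h. Of 13 tested members 2 (15.4%) were below 0 on both arrays and 2 (15.4%) above, with medians of -0.063 and 0.18. HLA-DRA, the α chain of HLA-DR, was at 0.0016 and -0.22 at 8 h and at -1.40, -0.10 and -0.34 at 12 h. At 24 h it was at -1.64, -0.51 and -1.44. CIITA, the master activator of these genes, was at -0.12 and 0.78. In the run of sample 1 the list's median went from -0.063 at 8 h to -0.16 at 12 h and -0.26 at 24 h, and in that of sample 2 from 0.18 to -0.84 and -0.73. Lower than at 8 h were 11 of 13 genes at 12 h and 10 of 13 at 24 h in the former run, and 10 of 13 and 11 of 13 in the latter, beside 52.6%, 56.5%, 52.7% and 52.6% of all rows. Here too the 8 h array was the one of smallest robust SD in its run. HLA genes share near-identical sequence, so spotted features may not tell them apart.

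Regulators of apoptosis lay mostly below 0. Of 19 tested members 17 were below 0 on sample 1 and 12 on sample 2. On both arrays 10 (52.6%) were below, beside 21.9% of all rows, and 0 were above. The medians were -0.090 and -0.19. Both pro-apoptotic and survival genes were among them. BMF, a pro-apoptotic BH3-only gene, was at -0.55 and -1.13, the member farthest below 0 on both arrays in units of each array's robust SD. On sample 2 alone CFLAR and BIRC5 were lower. BAD and PMAIP1, also of the BH3-only class, were at -0.14 and -0.76 and at -0.28 and -0.23. The effectors BAX and BAK1 were at -0.078 and -0.20 and at -0.075 and -0.29. BCL2, the founding survival gene, was at -0.10 and -0.39, and BIRC5, encoding survivin, at -0.014 and -1.14. BCL2A1 and BCL2L1, survival genes regarded as NF-κB targets, were at -0.090 and 0.14 and at -0.062 and 0.10. MCL1, on which many myelomas depend, was at 0.027 and -0.90. The list's median was nearer to 0 on 5 of the 6 later arrays than on either 8 h array, at -0.058 to 0.018, and was -0.26 on sample 1 at 12 h.

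Genes of the secretory pathway lay mostly above 0 on sample 1 and were evenly divided on sample 2. Below 0 were 3 of 18 and 9 of 18, beside 46.7% and 51.2% of all rows. Of the 18 tested genes of the endoplasmic reticulum and its stress response, 9 (50.0%) were above 0 on both arrays, beside 23.8% of all rows, and 3 (16.7%) below. The medians were 0.11 and 0.10, and that of sample 2 was 0.0063 on the values as deposited and 0.0095 after quantile normalization. SSR3, part of the complex that sits beside the translocon, was at 0.34 and 1.11 at 8 h. It stayed above 0 on all 6 later arrays, between 0.26 and 0.94. SRP14 and SRP9, the Alu-binding pair of the signal recognition particle, were at 0.26 and 0.97 and at 0.16 and 0.69. XBP1, the transcription factor of the secretory programme, was at 0.20 and 0.72, and DNAJB9, one of its targets, at 0.10 and 0.48. The main chaperones did not follow on sample 2. HSPA5, encoding BiP, was at 0.062 and -0.81, HSP90B1, encoding GRP94, at 0.28 and -0.73, and SEL1L, of the degradation machinery, at 0.28 and -1.90. Counted by feature the mean of both list medians was -0.011, and over features measured on both 8 h arrays, averaged within genes, it was -0.0087. The cause of these moves was not tested.

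MYC and its targets, 17 tested, had 9 members (52.9%) above 0 on both arrays and 2 (11.8%) below, with medians of 0.11 and 0.20. MYC itself was at 0.49 on sample 1, at percentile 99.2, and at 0.69 on sample 2, at percentile 84.2. All 4 of its features were above 0 on both arrays, from 0.41 to 0.67 and from 0.039 to 1.51. The mean was 0.59 ± 0.25 (SE, n = 2, limma adjusted p = 1.0), and later values ran from -0.18 to 0.58. DDX21, a nucleolar helicase, was at 0.28 and 0.77, and NPM1, a nucleolar chaperone, at 0.051 and 0.89. NCL, encoding nucleolin, went against itself, at 0.66 on sample 1 and -2.12 on sample 2. Ribosomal protein genes had 12 of 24 members (50.0%) above 0 on both arrays and 5 (20.8%) below, with medians of 0.079 and 0.20. RPS6 was at 0.18 and 1.57, RPS3A at 0.19 and 0.62 and RPL8 at 0.31 and -0.89. Ribosomal genes have many processed copies, so features may read several of them.

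Plasma cell identity genes were mostly above 0 on sample 1 and divided on sample 2. Of 14 tested, 3 were below 0 on sample 1 and 7 on sample 2, and 6 (42.9%) were above on both. Besides TNFRSF17 and XBP1, PRDM1, the master regulator BLIMP1, was at 0.044 and 0.34, and IRF4, on which myeloma cells depend, was at 0.27 and 0.086. JCHAIN, the joining chain of antibodies, was at 0.080 and 0.45. SLAMF7 and SDC1, both surface markers of plasma cells, were at 0.17 and -1.32 and at 0.16 and -0.89. ELL2, an elongation factor of antibody production, was at 0.19 and -3.15. B cell genes that plasma cells silence showed medians of -0.021 and 0.057, the latter turning to -0.040 on the values as deposited and to -0.083 after quantile normalization.

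**Figure D4:**
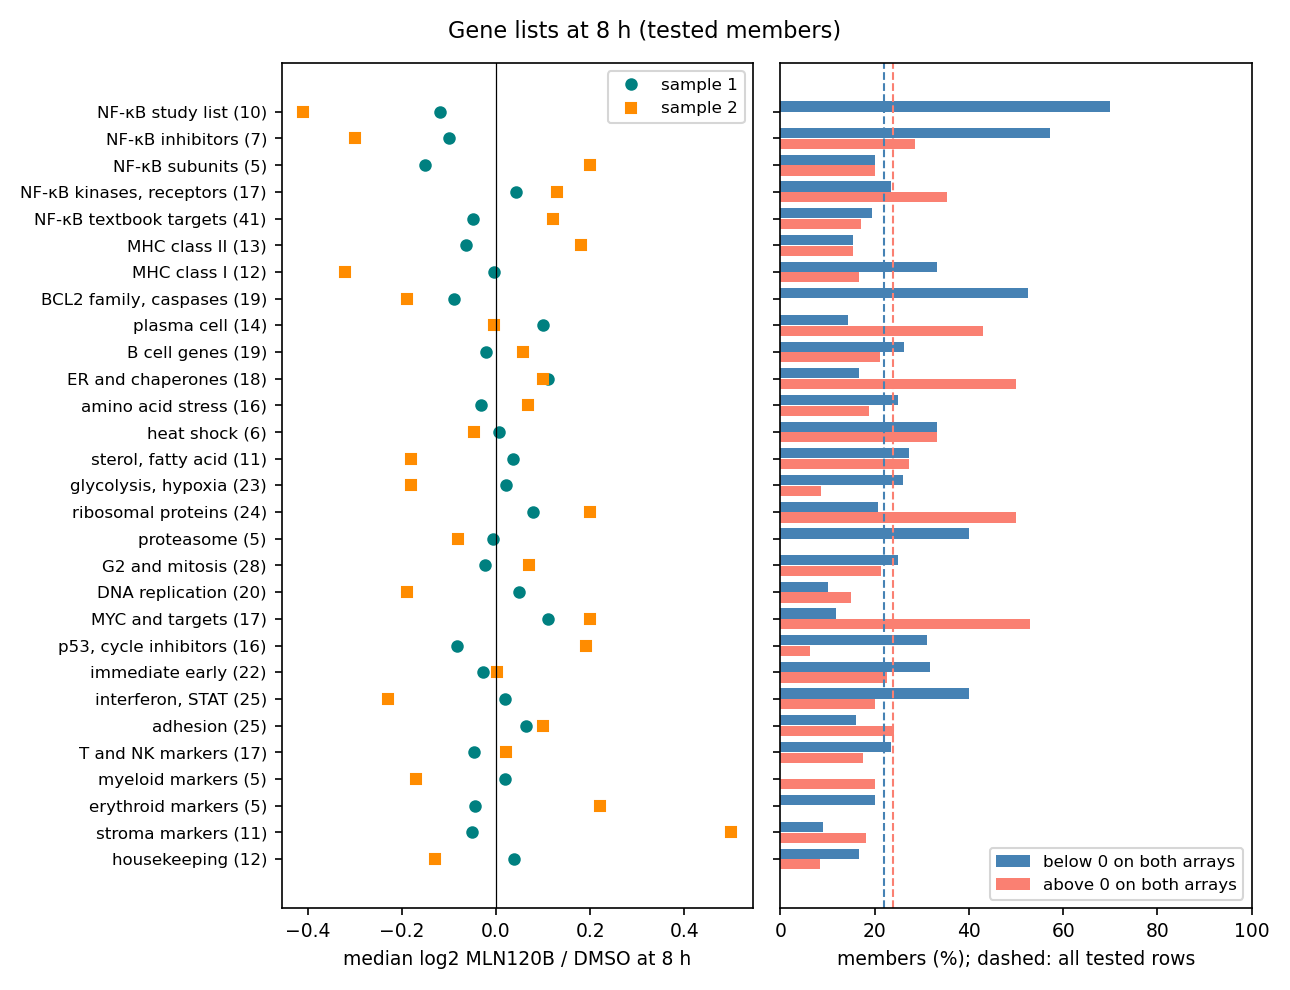
Left: median log2 ratio (MLN120B over DMSO) of the tested members of each gene list on 8 h sample 1 (circles) and sample 2 (squares), with the number of members in brackets. Right: share of members below 0 (blue) or above 0 (red) on both arrays, with dashed lines at 21.9% and 23.8% for all tested rows. The blue bars of the study's NF-κB list (70.0%), the NF-κB inhibitors (57.1%) and the apoptosis list (52.6%) are the longest. Of the inhibitors below 0 on both arrays only BCL3 is not on the study's list. The share below 0 on both arrays exceeds that of all rows in 16 of the 29 lists.

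Several lists took opposite positions on the 2 arrays. DNA replication genes were below 0 for 4 of 20 members on sample 1 and for 15 of 20 on sample 2, with medians of 0.048 and -0.19. MCM5, a replicative helicase subunit, was at 0.42 and -0.079, and MCM4 at 0.11 and -1.80. Targets of p53 and cell cycle inhibitors were below 0 for 14 of 16 on sample 1 and for 6 of 16 on sample 2, with medians of -0.084 and 0.19. CDKN1A, encoding p21, was at -0.051 and -1.46, and FAS, a death receptor, at -0.076 and 0.74. Glycolysis and hypoxia genes were below 0 for 10 of 23 and 17 of 23, with ALDOA at 0.10 and -1.18 and BNIP3L at 0.54 and 1.75. Housekeeping genes, which serve as controls, were divided in the same manner, with 3 of 12 below 0 on sample 1 and 10 of 12 on sample 2, at medians of 0.039 and -0.13.

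Interferon and STAT genes had 10 of 25 members (40.0%) below 0 on both arrays and 5 (20.0%) above. ISG15, a ubiquitin-like modifier, was at -0.24 and -0.66, with all 3 features below 0 on both arrays. ISG20, an exonuclease, was at -0.18 and -0.82, with all 4 features below 0 on both. On the later arrays its single features lay on both sides of 0, from -0.43 to 1.38. The ISG20 mean lay above 0 on all 6 of these arrays, from 0.00075 to 0.76. The later mean differed from 8 h by 0.92 ± 0.33 (SE, limma adjusted p = 0.99). Among all rows 15.1% at 12 h and 20.2% at 24 h likewise did not overlap their 8 h values, in either direction. SOCS1, a brake of cytokine signalling, was at -0.20 and -0.35. IFIT1 and IFIT3, antiviral genes, were at 0.086 and 0.48 and at 0.11 and 0.69. Among immediate early genes EGR1 was at 0.21 and 2.97, each from 1 feature that the other array did not measure. IER5, another of them, was at -0.32 and -0.93, and 7 of 22 (31.8%) lay below 0 on both arrays and 5 (22.7%) above.

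Ranked by how far both arrays stood from 0 on one side, each in units of its own robust SD, 139 named genes exceeded 1 unit on both arrays with the same sign, 61 below and 78 above. With opposite signs 207 did. The genes named here were chosen by these values, which are given as a description. The lowest was NKG7, a protein of cytotoxic granules, at -0.33 and -3.32, each from 1 feature. ALDH1A1, which oxidises retinaldehyde, was at -0.51 and -1.42, and STIL, needed to duplicate centrioles, at -0.28 and -7.38. CCNT1, the cyclin of the elongation factor P-TEFb, was at -0.43 and -1.20, and at 12 h and 24 h its 4 measured values ran from 0.10 to 0.37. Such a lack of overlap with 8 h, in either direction, held for 15.1% of all rows at 12 h and for 20.2% at 24 h. PIAS3, an inhibitor of STAT3, was at -0.28 and -1.04. TNFRSF25, the death receptor DR3, was at -0.29 and -1.22, and IL27RA, a cytokine receptor chain, at -0.28 and -1.28. HDAC5, PARD6A, MARCHF9, NR1I3 and the apoptosis gene BMF completed the lowest 12, and NR1I3 had no feature measured on both arrays. BMF was also below 0 on all 3 arrays at 12 h, at -1.77, -0.71 and -1.27, and at 24 h at 0.61 and -0.54. A consensus NF-κB decamer occurred in the promoter window of 3 of the 11 lowest genes that have one and of 1 of 10 highest.

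The highest genes on both arrays included CDKL1, a kinase gene, at 0.38 and 3.79, and BNIP3L, a mitophagy receptor, at 0.54 and 1.75. BNIP3L had 1 feature on sample 1 and 3 on sample 2, which ran from 0.14 to 3.78. GLTP, a glycolipid transfer protein, was at 0.43 and 1.68, and GSTP1, a detoxifying transferase, at 0.33 and 1.32. HSBP1, which binds heat shock factor, was at 0.49 and 1.24. MALAT1, an abundant nuclear RNA, was at 0.32 and 2.61, but its features on sample 2 ran from -2.14 to 11.02 with a median of 0.79. ANKRD11, ATP6AP1L, CD1C, ELP2, IL3RA and SULT1C2 completed the highest 12, at 0.27 to 0.35 on sample 1 and 1.23 to 5.62 on sample 2. The SULT1C2 feature measured on both arrays was at only 0.039 on sample 1. On sample 2 the features of IL3RA ran from -0.62 to 3.38 and those of CD1C from -0.11 to 3.32. At 24 h in the run of sample 1, ANKRD11 was at 0.49 and CDKL1 at 0.47. In the third run CDKL1 was at -0.37 at 24 h. ANKRD11 was at -0.050 there, but from another feature, which had no value on the 8 h arrays. Limma's adjusted p was 1.0 for all 24 genes of both groups.

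**Figure D5:**
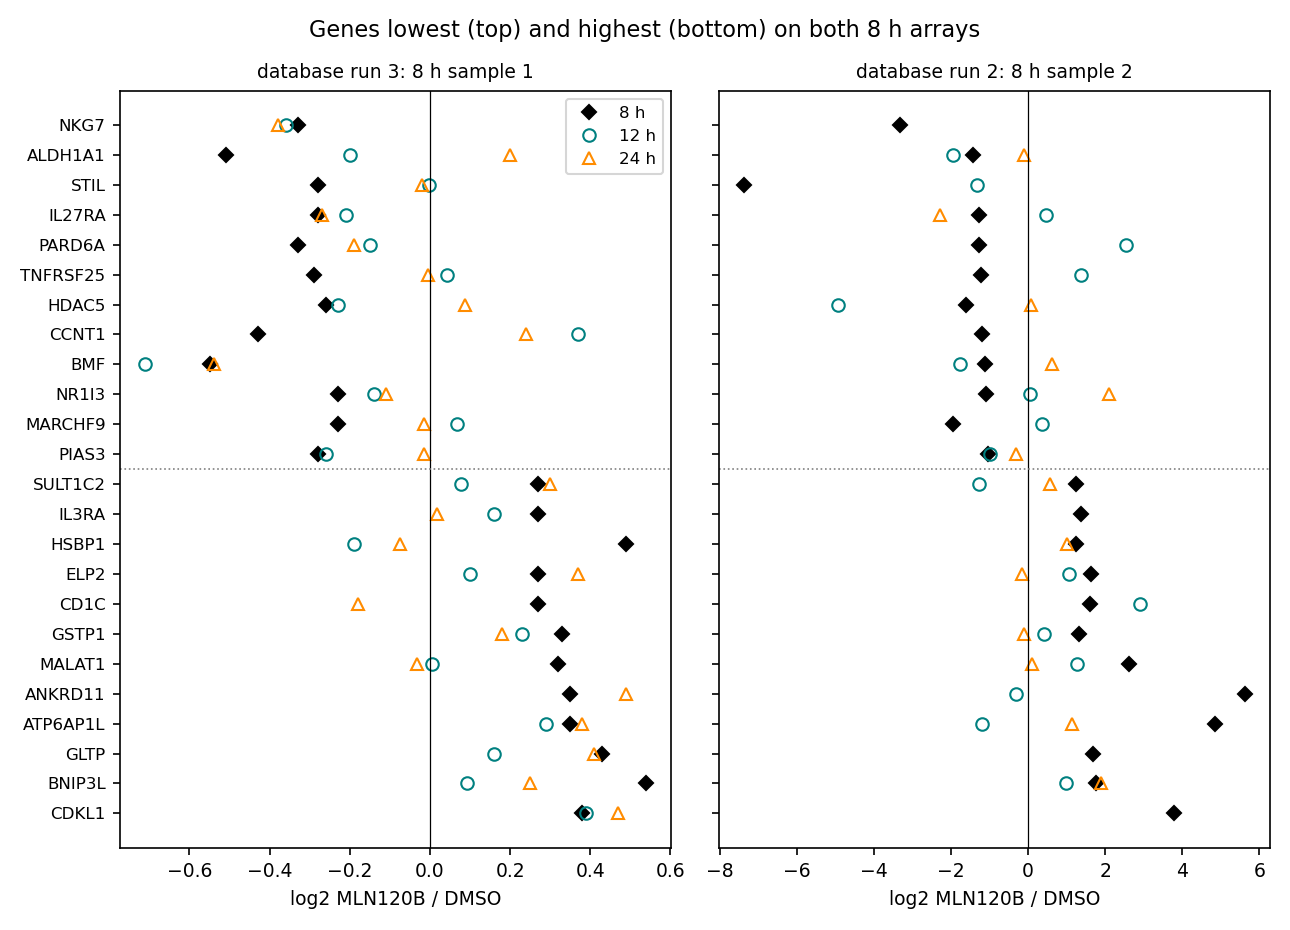
Log2 ratio (MLN120B over DMSO) of the 12 genes lowest (above the dotted line) and the 12 highest (below it) on both 8 h arrays, with filled diamonds for 8 h, circles for 12 h and triangles for 24 h on the arrays of the same database run; the panels differ in scale and missing points had no value. The diamonds were chosen to lie far from 0, and BMF is near its 8 h value of -0.55 on both later arrays in the left panel.

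Genes with the largest opposing values were GNG2, a G protein subunit, at -0.73 on sample 1 and 2.77 on sample 2, and DAB1, an adaptor of reelin signalling, at -0.69 and 2.70. HLF, a bZIP transcription factor, was at -0.52 and 3.75, and FPR2, a chemoattractant receptor, at -0.47 and 2.92. NFYA, a CCAAT-binding factor, was at 0.49 and -2.48. For these and NCL the smaller of both distances from 0 was 3.17 to 4.13 robust SD, beside 2.64 for CDKL1, the farthest gene of a shared sign.

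Markers of other cell types were read as a control, since L363 is an established line. Of the defining T and NK cell markers CD3D was at 0.30 and -5.13 and CD3E at -0.065 and -3.78, while GATA3 was at -0.046 and -0.98. On sample 2 the CD3D mean includes a feature at -8.99 and the CD3E mean a feature at -7.79. On the later arrays CD3D ran from -0.12 to 0.60. Of 17 T and NK genes 4 (23.5%) were below 0 on both arrays and 3 (17.6%) above. On sample 2 the list had 8 members below 0 and a median of 0.022, or -0.074 on the values as deposited. There the B cell markers PAX5, MS4A1 and CD79A were at -0.25, 0.95 and 1.26. The myeloid markers CD14, CD68 and TYROBP were at 0.68, -0.44 and 0.88, and the erythroid markers HBB, HBG1 and KLF1 at 0.22, 0.22 and -0.052. The stroma list had medians of -0.052 and 0.50. Values of such sizes on sample 2 thus also occurred for genes that mark other cell types, and their part in the other results was not tested.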

How the data were processed

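The authors' deposited log2 ratios, 1 column per array for 15246 features, were used as given. How the authors corrected background, filtered spots and normalized is not given in the sources used here. Without intensities the signal over background is unknown, and precision is limited by how few arrays there are. Each array was centred on its median (0.001 and -0.096 on the 8 h arrays as deposited). The platform annotation named 1 gene for 10169 features, several for 4 and none for 5073. Symbols were updated through RefSeq (10128 by Entrez identifier, 17 by accession, 24 kept). Features of a gene were averaged, and rows measured on 2 or more arrays of every time were tested. With limma 3.58.1 (R 4.3.3) all 8 arrays entered 1 linear model having 1 mean per time, with 5 residual degrees of freedom and moderated 2-sided tests, Benjamini-Hochberg adjustment over the 5411 rows and a threshold of 0.05. DMSO RNA was on every array and no array compared DMSO with DMSO, so the control's spread was not measured on its own. The scripts were tested on simulated data.

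The arrays, gene lists and rules were chosen with earlier results of these data known. Named were all tested genes of the study's NF-κB list, the inhibitors and the subunits, the 12 lowest and 12 highest genes on both arrays, the 6 most opposed, the 2 leading members of each other list, the 3 genes with the smallest p per difference between times, and IKBKB. Other members named with a list were chosen after their values were seen. None of the 29 lists was tested as a set, and 2 arrays allow no exact p under 0.5. Alternatives covered centring, scaling, filters, averaging of features, blocks, array weights and each array left out. Tables and plots were made in Python 3.11.15 (pandas 2.3.3, matplotlib 3.10.9).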

Additional observations from a re-analysis of the deposited data

Results flagged for a closer look

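The median of the kinases, adaptors and receptors upstream of NF-κB was above 0 at 8 h and below 0 at 12 h. Their median over the 17 tested genes was 0.042 on sample 1 and 0.13 on sample 2 at 8 h, and -0.30, -0.026 and -0.032 on samples 1, 2 and 3 at 12 h. The mean of the array medians was therefore 0.21 higher at 8 h. At 24 h the array medians were -0.19, 0.048 and -0.038. Over all rows the medians were 0.012 and -0.024 at 8 h and -0.083, 0.007 and 0.088 at 12 h. Sample 1 at 12 h, the farthest from 0, was a wide array with a robust SD of 0.91. Single members had no common direction at 8 h, and the difference between the times was not tested. TNFRSF17, the gene of the receptor BCMA, had the highest value of the list in array units at 8 h, and was above 0 at 12 h as well, so it does not share the change of side. With each feature on its own the mean of the 8 h medians was 0.015.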

How the results depend on the processing

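The 8 h arrays limit every result: 1 array in each of 2 database runs and none in the third, signal unknown, and a pooled mean that sample 2 dominates. The count of rows called at 8 h stayed at 0 under each alternative except leaving out arrays, where it ran from 0 to 125. The counts ran from 0 to 92 for the later mean against 8 h, 0 to 71 for 12 h against 8 h and 0 to 70 for 24 h against 8 h. With 1 array left at 8 h the lone sample is assumed to vary like the other times. The cause of these moves was not tested.

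Deviations from the time means correlated at -0.26 to -0.15 between 8 h arrays and later arrays of the same sample number, and at 0.20, 0.23 and 0.33 between the 12 h and 24 h arrays of samples 1, 2 and 3. With 2 arrays at 8 h their deviations are mirror images, and each shares its run with later arrays of the other sample number. These correlations therefore cannot show whether the sample numbers pair the 8 h arrays. The numbers were not taken to pair them. With sample number as a replicate block 0 rows were called at 8 h, with 353 at an unadjusted p under 0.05, and RELB stood at -0.15 and REL at -0.070. With the database run as a fixed block 0 rows were called, with RELB at -0.15 and REL at -0.070. These values equal those of the replicate block by design. Sample 3 and the third run are the same arrays, with none at 8 h, and both blocks adjust the 8 h value by them. As a random block the run gave 0 rows, with RELB at -0.040.

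Values at 8 h turned sign as follows. As deposited, RELB was at -0.0083. Scale normalization gave RELB -0.28, CD74 0.061, PLEK -0.026 and CYLD 0.013. Quantile normalization gave RELB -0.39, CD74 0.039, PLEK -0.043, CYLD 0.0091 and RELA -0.13. Over features measured on both arrays, an alternative chosen after seeing the data, RELB was at -0.17. Leaving out 1 array at 8 h in turn gave -0.35 to 0.13 for CD74, -0.18 to 0.053 for CYLD, -0.32 to 0.061 for NFKB1, -0.084 to 0.26 for PLEK, -0.2 to 0.99 for RELA and -0.33 to 0.41 for RELB.

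The mean of both list medians moved by more than its spread in these cases. As deposited, it was 0.057 for endoplasmic reticulum, -0.068 for heat shock, -0.061 for immediate early and 0.036 for adhesion genes. Scale normalization gave 0.15 for endoplasmic reticulum genes. Quantile normalization gave -0.22 for apoptosis, -0.088 for B cell, 0.15 for endoplasmic reticulum, -0.056 for immediate early and -0.073 for T and NK genes. Rows measured on both 8 h arrays gave 0.13 for endoplasmic reticulum, 0.038 for heat shock and 0.060 for proteasome genes. Rows on all 8 arrays gave 0.17 for B cell, 0.22 for endoplasmic reticulum, 0.018 for adhesion and -0.42 for T and NK genes. Features on their own gave 0.015 for NF-κB kinases and receptors, 0.13 for plasma cell, -0.055 for B cell, -0.011 for endoplasmic reticulum, -0.24 for glycolysis, -0.037 for adhesion and 0.14 for T and NK genes. The median over features gave 0.11 for endoplasmic reticulum and 0.029 for immediate early genes. Features on both arrays gave 0.023 for NF-κB kinases and receptors, -0.062 for B cell, -0.0087 for endoplasmic reticulum, 0.0097 for immediate early and 0.0088 for adhesion genes. The other 375 list values moved within their spread. Of the gene values 1205 kept their sign (study list, inhibitors and subunits) or moved within their spread (other genes), and 30 of other genes moved by more, for example MYC to 0.76 under scale and 0.95 under quantile normalization and BMF to -1.35 under the latter.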

Other observations

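Sample 2 at 8 h held a set of extreme features. More than 5 from 0 on the log2 scale lay 144 features, 93 above and 51 below, and no feature of sample 1 did. Sample 1 had a value for 89 of them, with a median size of 0.13 and a largest of 0.67, and the sign was shared by 32. Of the 144 features 63 had a value on another array of the same database run, where 1 was again beyond 5. Of the genes named by rule 4 had 1 such feature each, NFKB2 at -10.11, STIL at -7.38, ANKRD11 at 5.62 and MALAT1 at 11.02. Among the other list genes of the text CD3D had one at -8.99, CD3E at -7.79, CDH1 at 11.77 and SDC4 at 9.82.

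Both 8 h arrays received the same weight from limma's array weights, 0.720, since with 2 arrays at a time each deviates equally from their mean. Among 12 h and 24 h arrays the weights ran from 0.221 to 3.73. Adhesion genes at 8 h included values far from 0 on sample 2 alone. CDH1, encoding E-cadherin, was at -0.086 on sample 1 and 6.38 on sample 2, and SDC4, a heparan sulfate proteoglycan, at 0.064 and 4.78. ITGB7, the integrin β7 chain, was at 0.36 and -0.15 at 8 h. Its later values were -0.40, 0.43 and 1.23 at 12 h and 1.47, 0.83 and 2.04 at 24 h, so that all 24 h values lay above both 8 h values, as for 20.2% of rows in either direction, and the difference did not pass in limma. These 3 genes were chosen after their values were seen.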
